A study of Mus musculus with 18 samples.

Results

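The genes described here are known from the dividing cells at and near the ventricles of the developing cortex and from the Notch signals that pass between them. They were chosen by symbol, and all 10 of them (*Sox2*, *Pax6*, *Eomes*, *Neurog2*, *Hes1*, *Hes5*, *Notch1*, *Notch2*, *Fabp7* and *Msi1*) were found among the 23038 gene symbols of the deposited counts table. Radial glia are the stem cells of the embryonic cortex. Their daughters are further radial glia, neurons, or intermediate progenitors, which divide in the subventricular zone and mostly give neurons. Notch receptors on radial glia are activated by ligands on neighbouring cells, are cut inside the membrane, and travel to the nucleus, where they join the DNA-binding protein RBPJ and switch on *Hes1* and *Hes5*, whose products repress proneural genes such as *Neurog2*.

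Cortex RNA was sequenced from embryonic day 18.5 mice of CD1 background. The 4 groups, of 3 mice each, were *Nova2-/-* mice, the wild-type littermates of these, *Nova1-/-* mice, and the wild-type littermates of those. NOVA1 and NOVA2 are RNA-binding proteins of neurons that regulate alternative splicing, and the comparison of each knockout with its littermates asked which transcripts depend on either protein. The *Nova2* allele carries an insertion with Cre at the first known coding exon and is germline, so every cell of a *Nova2-/-* mouse carries it. The *Nova1* allele is likewise a germline null. Whole cortex was used, so for every value below, fewer cells of a type and less RNA per cell cannot be told apart.

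Total expected counts ranged from 16518172 to 31362018 per mouse over the 12 libraries, and wild-type mouse 2 of the *Nova2* litters was the shallowest. That library also had a count in 21791 genes, against 18397 to 19396 in the other 11. *Nova1* was at 1 to 5 counts in the *Nova1-/-* mice, whose log2 fold change was -9.06 (SE 0.383, FDR = 7.94e-07), and *Nova2* in the *Nova2-/-* mice had a log2 fold change of -0.87 (SE 0.142, FDR = 0.0373). Levels are given as CPM, counts scaled to a fixed library total after scaling by edgeR's TMM method, and FDR is the adjusted p of edgeR's quasi-likelihood test over all genes tested, called below 0.05. No gene used to check the cell types of the tissue was at 0 in a whole group, other than 1 of the 13 intermediate progenitor genes in both groups of the *Nova1* litters.

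The window around the start of a gene is shown for *Hes5* and *Fabp7*, the members whose window holds the letters TGGGAA, the core of the motif that RBPJ recognises. Of the 10 genes, 8 had RefSeq windows (build GRCm38.p6), which run from 250 bases before the start to 50 bases after it. *Hes1* and *Msi1* had none. The motif was searched on both strands, so that it also reads TTCCCA, and matches are in capitals. *Hes5*, at chr4:154960673-154960972 on the plus strand, has 2 matches, at 226 and 82 bases before the start. *Fabp7*, at chr10:57784673-57784972 on the plus strand, has 1 match, at 249 bases before the start.
Hes5: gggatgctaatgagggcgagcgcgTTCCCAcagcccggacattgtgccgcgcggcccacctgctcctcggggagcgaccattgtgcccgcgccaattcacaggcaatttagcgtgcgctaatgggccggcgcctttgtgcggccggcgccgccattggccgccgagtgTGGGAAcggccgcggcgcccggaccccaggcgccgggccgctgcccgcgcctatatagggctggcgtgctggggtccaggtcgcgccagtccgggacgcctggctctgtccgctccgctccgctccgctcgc
Fabp7: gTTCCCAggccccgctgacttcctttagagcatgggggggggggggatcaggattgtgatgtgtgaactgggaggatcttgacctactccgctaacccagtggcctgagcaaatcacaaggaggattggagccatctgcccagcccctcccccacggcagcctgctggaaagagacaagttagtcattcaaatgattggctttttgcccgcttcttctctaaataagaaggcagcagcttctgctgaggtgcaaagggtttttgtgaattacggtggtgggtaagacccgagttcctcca
At least 1 match was found in 25.6% of all 32851 windows of this length, and at least 2 matches, as in *Hes5*, in 3.79%. No match was found in the windows of *Sox2*, *Pax6*, *Eomes*, *Neurog2*, *Notch1* and *Notch2*, which says only that these letters are not in those bases.

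In wild-type cortex the 10 genes were all detected, at levels that differed widely. The annotation used for counting is not given in the sources used here, so the lengths below may not match it. Per kilobase of exon in the GENCODE annotation of mm9, *Fabp7*, the brain fatty acid-binding protein of radial glia, stood at 629 ± 96.4 CPM per kb (SD, n = 6 wild-type mice of both sets of litters). The stem cell transcription factor *Sox2* followed at 16.7 ± 1.82 CPM per kb. *Hes5* had 12.1 ± 4.53 CPM per kb. The *Fabp7* range, 444 to 725 CPM per kb, lay apart from the *Sox2* range, whereas *Sox2* exceeded *Hes5* in 5 of 6 mice with overlapping ranges.

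*Notch2* was at 8.66 ± 2.11 CPM per kb and *Msi1*, which codes for an RNA-binding protein of neural stem cells, at 6.47 ± 1.16. Over its longest transcript *Msi1* came to 11.97 CPM per kb, above *Notch2*. *Notch1* had 4.06 ± 0.567 CPM per kb. These neighbours overlapped in range, and *Notch1* exceeded *Eomes* in only 3 of 6 mice. *Eomes* (Tbr2), the transcription factor that marks intermediate progenitors, stood at 3.77 ± 0.630 CPM per kb and *Hes1* at 3.16 ± 0.798. The proneural factor *Neurog2* had 2.34 ± 0.633 CPM per kb and *Pax6*, a transcription factor of cortical radial glia, 1.37 ± 0.219. *Neurog2* lay above *Pax6* in 6 of 6 mice without overlap, but the union of the exons of *Pax6* is 19.833 kb over 33 annotated transcripts, and over its longest transcript *Pax6* came to 3.24 CPM per kb.

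**Figure D1:**
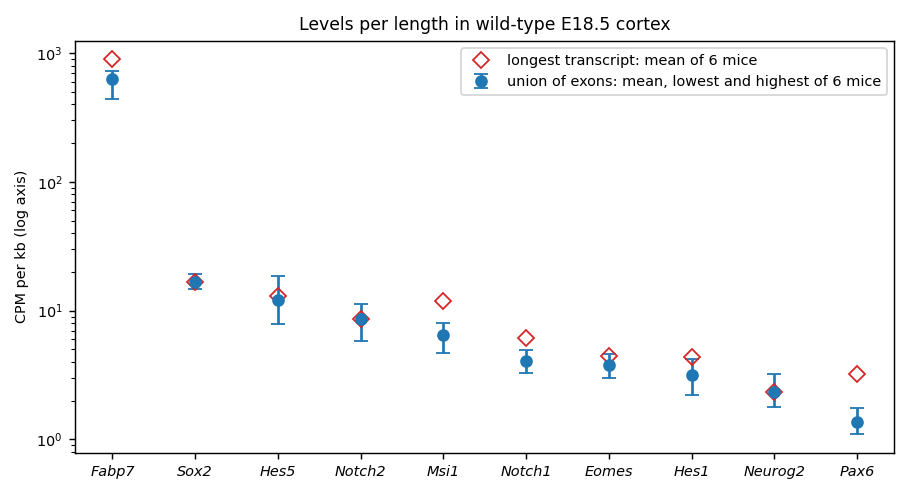
Level of each of the 10 genes in the 6 wild-type cortices, in CPM per kb on a log axis. Filled circles are means over the union of exons with bars from the lowest to the highest mouse, and open diamonds are means over the longest transcript. *Fabp7* lies above all others, and neighbouring genes from *Sox2* down to *Neurog2* overlap in range.

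In *Nova2-/-* cortex none of the 10 genes passed an FDR of 0.05, whatever the size of the change, in a comparison that called 1.06% of the 15691 genes tested. At an unadjusted p below 0.05 there were 3 members (*Notch2*, *Neurog2* and *Msi1*), against 19.2% of all genes tested. The median log2 fold change of the 10 was 0.09, and that of all genes 0.01. The *Nova2-/-* and wild-type mice did not overlap in 2 of the 10, *Notch2* and *Neurog2*, both higher in the knockout, where 26.4% of all genes tested did not overlap and 12.4% did so with the knockout higher.

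*Notch2*, one of the pair of Notch receptors with the best-known roles in radial glia, had the largest log2 fold change of the 10 in *Nova2-/-* mice. Its levels were 60.7, 69.1 and 90.8 CPM in wild-type mice 1 to 3 and 97.3, 95.1 and 132 CPM in *Nova2-/-* mice 1 to 3. Every knockout lay above every wild-type littermate, although wild-type mouse 3 came within a few CPM of 2 knockouts. The log2 fold change was 0.57 (SE 0.175, 95% interval 0.17 to 0.97, FDR = 0.146). *Notch2* was the member whose call depended most on the method: DESeq2 gave an FDR of 0.0215, a fit of all 12 cortices 0.0297 and a replicate block 0.0271. The number called over all genes also depended on the method. It was 166 in the fit used here and 166 to 1334 over the alternatives that kept all mice. Leaving out wild-type mouse 3 gave a log2 fold change of 0.76 and an FDR of 0.016, whereas other single mice left out took the log2 fold change down to 0.40. Over all genes, the fits that left out 1 mouse called 7 to 1433.

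The summed CPM of 14 genes of the meninges, the membranes that cover the cortex, was also higher in every knockout than in every littermate, and like *Notch2* it was highest in mouse 3 among the littermates. It was 291, 366 and 777 CPM in wild-type mice 1 to 3 and 1340.1, 1254 and 1229 CPM in *Nova2-/-* mice 1 to 3. Among the knockouts, mouse 3 was the highest in *Notch2* and the lowest in this sum. All 14 of these genes had a positive log2 fold change, where 51.8% of all genes did, with a median of 1.33. The list was chosen with earlier results of these data known, so their common direction is not separate support. Of the 14, 3 were called (1.06% of all genes were): the retinoic acid-binding protein *Crabp2* (1.09, FDR = 0.0352), the matrix proteoglycan *Dcn* (1.34, FDR = 0.0419) and the collagen *Col1a1* (1.498, FDR = 0.0477). The summed CPM of 10 endothelial and mural genes was 242 to 298 in wild-type littermates and 339 to 359 in *Nova2-/-* mice. Of these 10, 8 had a positive log2 fold change and 2 a negative one, with a median of 0.27. Only 1 was called, the VEGF receptor *Kdr* (0.78, FDR = 0.0239). The part of these other cell types in the values of *Notch2* was not tested.

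*Notch1*, the other receptor, was at 46.9, 57.0 and 52.6 CPM in the wild-type littermates and at 51.9, 50.3 and 67.9 CPM in the *Nova2-/-* mice. The groups overlapped, and the third knockout stood above the rest. The log2 fold change was 0.13 (95% interval -0.18 to 0.44, FDR = 0.634).

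The Notch targets did not pass the test in either direction. *Hes1*, a repressor that keeps progenitors dividing, was at 8.52, 8.38 and 5.83 CPM in wild-type mice 1 to 3 and at 5.07, 4.35 and 10.1 CPM in *Nova2-/-* mice 1 to 3. In the knockouts the first 2 mice were below all 3 littermates and the third was above them all, which left the log2 fold change at -0.20 with an interval of -0.92 to 0.53, the widest of the 10 (FDR = 0.775). *Hes5*, a related repressor, was at 22.9, 25.4 and 14.0 CPM in the wild-type mice and at 16.9, 16.0 and 24.6 CPM in the knockouts, with a log2 fold change of -0.09 (95% interval -0.64 to 0.45, FDR = 0.867). Within both groups 1 mouse stood apart from the other 2 in *Hes5*, in opposite directions.

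*Msi1* was the only one of the 10 with a 95% interval entirely below 0. It was at 43.1, 46.6 and 36.5 CPM in wild-type mice 1 to 3 and at 36.9, 33.8 and 34.5 CPM in *Nova2-/-* mice 1 to 3. Wild-type mouse 3 fell inside the range of the knockouts. The log2 fold change was -0.25 (SE 0.108, 95% interval -0.49 to -0.00, FDR = 0.259). Without wild-type mouse 3 it was -0.34 with an FDR of 0.0365, so the call on *Msi1* rested on whether that mouse was counted. The number called over all genes also depended on the mice counted, with 7 to 1433 when 1 mouse was left out and 166 with all mice.

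The radial glia genes *Sox2*, *Pax6* and *Fabp7* had log2 fold changes of 0.05 to 0.10. *Sox2* was at 47.2, 43.2 and 44.3 CPM in wild-type littermates and at 44.0, 41.6 and 55.1 CPM in *Nova2-/-* mice (log2 fold change 0.08, 95% interval -0.20 to 0.35). *Pax6* was at 34.5, 28.2 and 27.9 CPM against 29.7, 27.5 and 35.6 CPM (0.05, interval -0.25 to 0.34). In both genes 2 knockouts lay within or just below the range of the littermates and the third was the highest of the 6 mice. *Fabp7*, the most abundant of the 10, was at 847, 792 and 555 CPM against 791, 750 and 784 CPM (0.10, interval -0.22 to 0.41), so its spread lay in the wild-type group. The FDR values of these 3 genes were 0.769, 0.878 and 0.746.

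The genes of neuron production had larger log2 fold changes in *Nova2-/-* mice, which did not pass the threshold. *Neurog2*, which starts neuronal differentiation, was at 7.17, 6.81 and 4.49 CPM in wild-type mice 1 to 3 and at 7.47, 8.92 and 10.03 CPM in *Nova2-/-* mice 1 to 3. The lowest knockout was only just above the highest littermate. Its log2 fold change was 0.54 (SE 0.206, 95% interval 0.07 to 1.01, FDR = 0.214), and leaving out single mice moved it between 0.35 and 0.67. *Eomes* was at 17.9, 16.7 and 14.5 CPM against 17.9, 17.2 and 28.4 CPM, with a log2 fold change of 0.39 (SE 0.199, 95% interval -0.07 to 0.84, FDR = 0.332). Only the third knockout stood clear of the littermates in *Eomes*, and without 1 mouse at a time the log2 fold change ranged from 0.11 to 0.50.

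**Figure D2:**
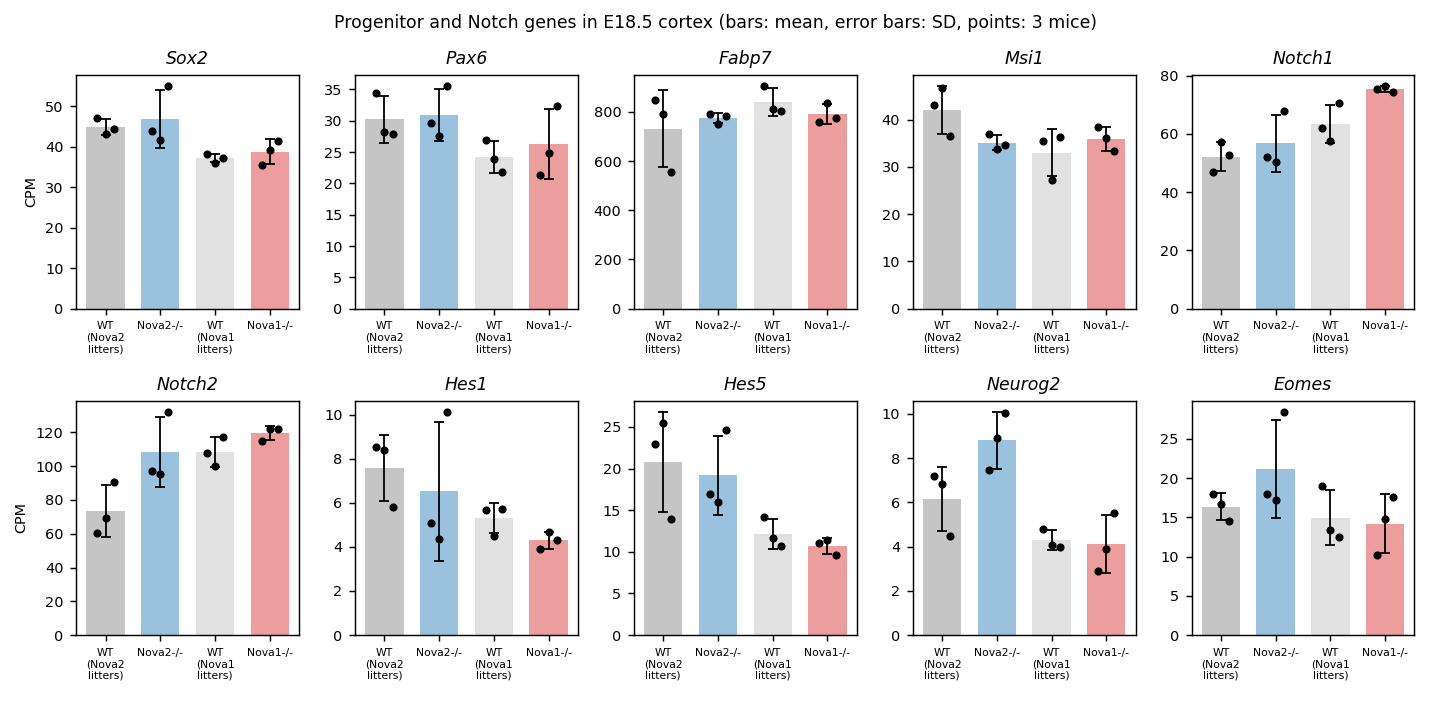
CPM of each gene in the 12 cortices, by group. Bars are means, error bars are SDs and points are the 3 mice of a group in replicate order. The *Nova2-/-* mice all lie above their littermates in *Notch2* (95.1 to 132 against 60.7 to 90.8 CPM) and *Neurog2* (7.47 to 10.03 against 4.49 to 7.17 CPM), and the *Nova1-/-* mice in *Notch1* (74.2 to 76.5 against 57.5 to 70.4 CPM).

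In *Nova1-/-* cortex none of the 10 genes was called either, in a comparison that called 0.0126% of 15901 genes, a count of 2. The median log2 fold change of the 10 was -0.00, as it was 0.00 for all genes, and 5 of the 10 were positive (50.6% of all genes). *Notch1* alone had an unadjusted p below 0.05, where 7.44% of all genes did, and *Notch1* alone was without overlap between the groups, where 13.5% of all genes were and 6.7% with the knockout higher.

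*Notch1* was at 62.1, 57.5 and 70.4 CPM in wild-type mice 4 to 6 and at 75.5, 76.5 and 74.2 CPM in *Nova1-/-* mice 1 to 3. The knockouts lay close together above all 3 littermates. The log2 fold change was 0.25 (SE 0.0737, 95% interval 0.09 to 0.41, FDR = 0.505). *Notch2* was at 108, 99.9 and 118 CPM in the littermates and at 115, 122 and 122 CPM in the *Nova1-/-* mice (0.14, 95% interval -0.00 to 0.28, FDR = 0.672).

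*Hes1* had the most negative value of the 10 in *Nova1-/-* mice, with 5.69, 4.51 and 5.73 CPM in the littermates and 3.90, 4.65 and 4.31 CPM in the knockouts. Its log2 fold change was -0.31 (SE 0.147, 95% interval -0.63 to 0.01, FDR = 0.673), and 1 knockout lay inside the range of the littermates. *Hes5* was at 14.2, 11.7 and 10.7 CPM against 11.002, 11.4 and 9.63 CPM (-0.18, 95% interval -0.46 to 0.09, FDR = 0.786). Both targets thus stood lower in mean in the mice where both receptors stood higher in mean, and no one of these 4 differences passed the test.

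Among the radial glia genes of the *Nova1* litters, *Sox2* was at 38.2, 36.1 and 37.3 CPM in wild-type mice and at 35.4, 39.3 and 41.5 CPM in *Nova1-/-* mice. *Pax6* had 27.0, 23.9 and 21.8 CPM against 21.4, 24.9 and 32.4 CPM, and *Fabp7* had 906, 812 and 802 CPM against 760, 837 and 776 CPM. The groups overlapped in all 3, and the log2 fold changes were 0.06, 0.11 and -0.09 with intervals of -0.11 to 0.22, -0.19 to 0.41 and -0.22 to 0.05. *Msi1* was at 35.4, 27.3 and 36.2 CPM against 38.3, 36.0 and 33.4 CPM (0.12, interval -0.11 to 0.35), again with overlap.

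*Neurog2* was at 4.81, 4.05 and 3.98 CPM in the wild-type mice of the *Nova1* litters and at 2.90, 3.91 and 5.53 CPM in the *Nova1-/-* mice. The knockouts spanned the whole range of the littermates and beyond. *Eomes*, at 19.1, 13.4 and 12.5 CPM against 10.1, 14.8 and 17.7 CPM, also overlapped, with the lowest value in a knockout and the highest in a littermate. The intervals of the log2 fold changes, -0.53 to 0.40 for *Neurog2* and -0.51 to 0.35 for *Eomes*, show how large a difference in either direction these 6 mice could not exclude.

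**Figure D3:**
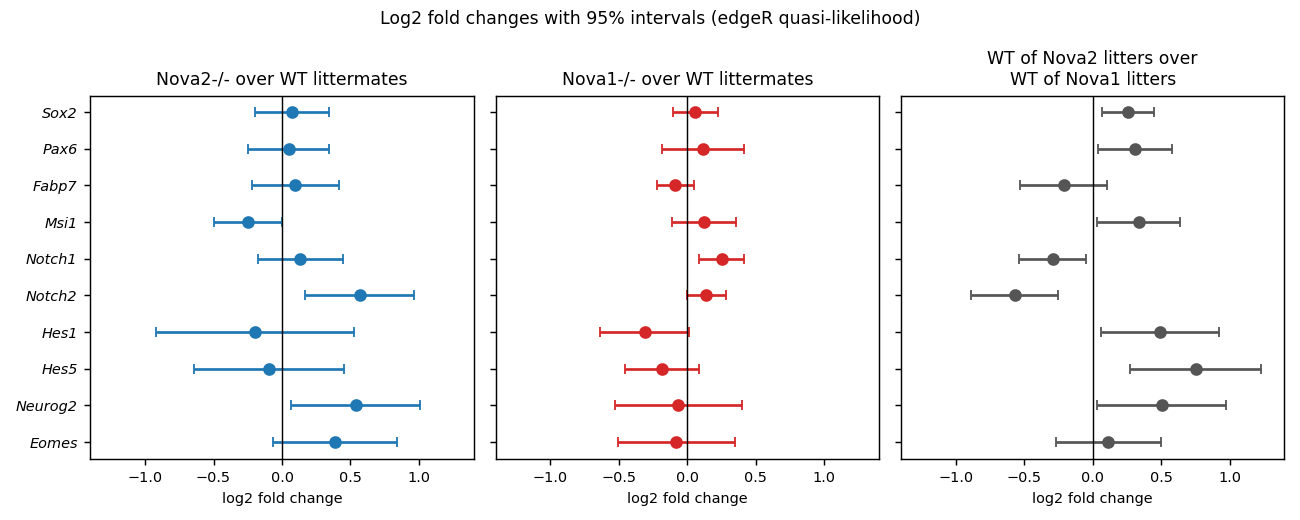
Log2 fold change of each gene, with its 95% interval, for *Nova2-/-* over wild-type littermates, *Nova1-/-* over wild-type littermates, and wild-type mice of the *Nova2* litters over wild-type mice of the *Nova1* litters. Intervals clear of 0 belong to *Notch2*, *Neurog2* and *Msi1* in *Nova2-/-* mice, to *Notch1* in *Nova1-/-* mice, and to 8 of the 10 genes between the wild-type groups, and no gene in the 3 panels has an FDR below 0.05.

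Whether the knockouts' changes differed from each other was tested for each gene in a fit of all 12 cortices, as the log2 fold change of *Nova2-/-* less that of *Nova1-/-*. This fit called 1.83% of 16210 genes and none of the 10. *Msi1* alone had an unadjusted p below 0.05 (18.2% of all genes did), and 7 of the 10 differences were positive (48.3% of all genes). The difference for *Msi1* was -0.38 on the log2 scale (SE 0.165, 95% interval -0.74 to -0.03, FDR = 0.24). *Notch2* differed by 0.42 (interval -0.01 to 0.84, FDR = 0.289), *Neurog2* by 0.59 (interval -0.10 to 1.28, FDR = 0.356) and *Eomes* by 0.45 (interval -0.24 to 1.14, FDR = 0.491). *Sox2* differed by 0.00, with an interval of -0.30 to 0.31. Without wild-type mouse 3 of the *Nova2* litters, *Notch2* was called at 0.61 (FDR = 0.0364). Over all genes, the fits that left out 1 mouse called 113 to 1005, against 296 with all mice. These tests share their samples with the comparisons above.

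Both sets of wild-type mice have the same genotype, so their comparison shows how far the 10 genes differed between the sets of litters. None was called, against 3.03% of 15918 genes, but 8 of 10 had an unadjusted p below 0.05 where 21.1% of all genes did. The median log2 fold change, *Nova2* litters over *Nova1* litters, was 0.28, with 0.00 over all genes, and 7 of the 10 were positive (50.3% of all genes). The groups did not overlap in 6 of the 10 (27.4% of all genes). *Sox2*, *Pax6*, *Hes1* and *Msi1* lay higher in the *Nova2* litters without overlap (13.8% of all genes), and *Notch1* and *Notch2* lower (13.6%).

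*Notch2* had the smallest FDR of the 10 in that comparison, with 73.5 ± 15.6 CPM in the *Nova2* litters against 108 ± 8.86 CPM in the *Nova1* litters (SD, n = 3 each), a log2 fold change of -0.57 (95% interval -0.89 to -0.25, FDR = 0.0647). *Nova2-/-* mice, at 108 ± 20.8 CPM, had a mean near that of the wild-type mice of the *Nova1* litters. *Hes5* went the other way, with 20.8 ± 6.01 against 12.2 ± 1.81 CPM and a log2 fold change of 0.75 (interval 0.27 to 1.23, FDR = 0.0877). *Sox2* was at 44.9 ± 2.08 against 37.2 ± 1.06 CPM (0.26, FDR = 0.121).

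*Notch1* had a log2 fold change of -0.29 between the wild-type groups and *Hes1* one of 0.49. *Pax6* stood at 0.31 and *Msi1* at 0.34. *Neurog2* was at 0.50, while *Fabp7*, at -0.21, and *Eomes*, at 0.11, had intervals that held 0. Without wild-type mouse 3 of the *Nova2* litters, 8 of the 10 genes were called, and in each of the other 5 fits that left out 1 mouse 0 were. The number called over all genes moved as well. It ranged from 3 to 3561 over the fits that left out 1 mouse, against 483 of 15918 with all mice. The summed CPM of the 14 meningeal genes in wild-type mice was 291 to 777 for the *Nova2* litters and 1125 to 1450.5 for the *Nova1* litters. The share of expected counts that were fractional was 7.48% to 11.7% in libraries of the *Nova2* litters and 18.6% to 20.02% in those of the *Nova1* litters. Litter set and any difference in how these libraries were made or counted cannot be told apart.

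Single mice stood out across several genes at once. *Nova2-/-* mouse 3 was the highest of its group in 8 of the 10 genes, all but *Fabp7* and *Msi1*, and *Nova2-/-* mouse 2 was the lowest in 9, all but *Neurog2*. Wild-type mouse 3 of the *Nova2* litters was the lowest of its group in 7 genes and the highest in *Notch2*. In the *Nova1* litters, wild-type mouse 4 was the highest in 6 genes and *Nova1-/-* mouse 1 the lowest in 7.

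**Figure D4:**
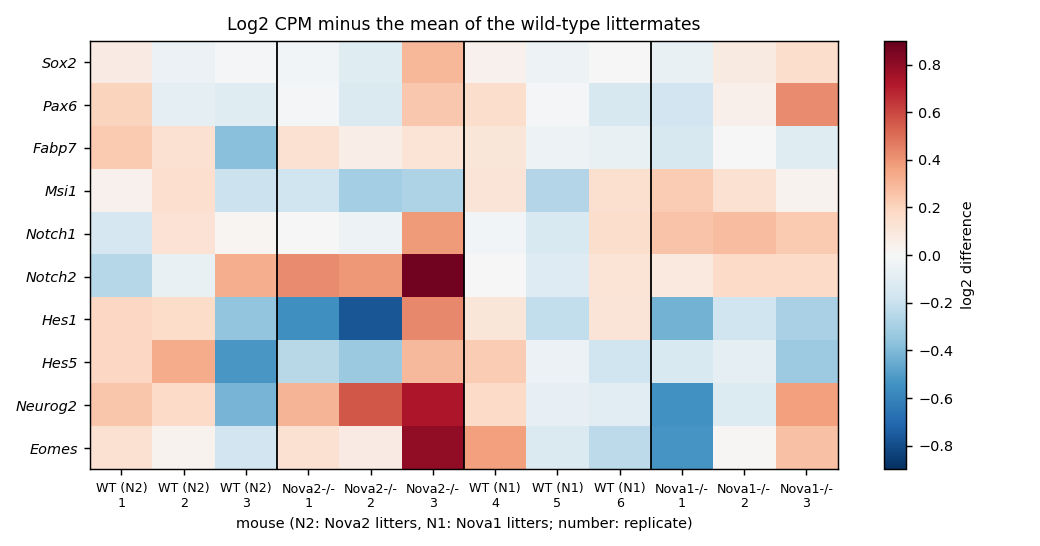
Log2 CPM of each gene in each of the 12 cortices, minus the mean of the wild-type littermates. Red is above and blue below that mean. *Nova2-/-* mouse 3 is red in every gene but *Msi1*, and wild-type mouse 3 of the *Nova2* litters is the lowest of its group in 7 of the 10 genes and the highest in *Notch2*.

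Over the 12 mice the genes fell into sets that went up and down together. These correlations are descriptions: points of a set of litters share their litter, and genes of 1 library share its depth and cell makeup. *Pax6* and *Eomes* had a Pearson r of 0.86 (Spearman 0.80), which was 0.90 once the mean of each group was taken away. *Sox2* and *Pax6* had 0.88 (0.90; 0.81 within groups), and *Eomes* and *Neurog2* 0.85 (0.79; 0.80 within groups). *Sox2*, *Pax6*, *Eomes* and *Neurog2* were thus high or low in largely the same mice, which did not hold for every gene of radial glia. *Fabp7* had an r of 0.19 with *Eomes* and 0.07 with *Neurog2* (0.42 and 0.61 within groups). *Msi1* had 0.03 with *Eomes* and 0.18 with *Neurog2* (-0.01 and 0.07 within groups).

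The receptors followed each other, as did their targets. *Notch1* and *Notch2* had r = 0.79 (Spearman 0.85; 0.74 within groups) and *Hes1* and *Hes5* r = 0.85 (0.68; 0.78 within groups). Across the pairs the value depended on whether group means were taken away: *Notch1* and *Hes1* had r = -0.29 (Spearman -0.38) over all mice and 0.72 within groups, *Notch1* and *Hes5* -0.56 and 0.38, and *Notch2* and *Hes5* -0.58 and -0.16. *Nova2-/-* mouse 3 stood apart from its group in both *Notch1* (67.9 against 51.9 and 50.3 CPM) and *Hes1* (10.1 against 5.07 and 4.35 CPM). The part of that mouse in the value of 0.72 was not tested. *Hes1* also followed *Sox2* (0.77; 0.84 within groups) and *Hes5* followed *Neurog2* (0.76; 0.50 within groups). *Hes5* and *Fabp7*, whose windows are printed above, had r = 0.07 over all 12 mice and 0.80 within groups, and the means of the sets of litters lay in opposite order in these genes.

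For each gene the transcripts with the highest Pearson r over the 12 cortices were taken from all genes that passed the filter, up to 3 of them. *Eomes* was nearest to *Btg2*, an antiproliferative gene known from neurogenic progenitors, at 0.93, followed by the mitotic kinase *Cdk1* and the proneural gene *Neurod4*. *Pax6* was nearest to *Esco2*, an acetyltransferase of sister chromatid cohesion, also at 0.93, then to *Insm1*, a zinc finger gene of intermediate progenitors, and *Hist2h2be*. *Neurog2* was nearest to the tubulin *Tuba1c* at 0.97, then *Magix* and *Dpf2*. *Notch2* was nearest to the nuclear RNA *Malat1* at 0.97, then to *Cspg4*, a proteoglycan of pericytes and oligodendrocyte precursors, and the collagen *Col6a2*.

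*Sox2* was nearest to *Arrdc3* at 0.95, then *Pnma3* and *1700048M11Rik*. *Notch1* was nearest to *Zfp280c* (0.94), *Hsd3b2* and *Mccc1*, and *Fabp7* to *Mettl8* (0.96), *Rhcg* and *Scp2*. *Hes5* was nearest to *Uspl1* (0.94), *Gtf3a* and *4930478L05Rik*, *Hes1* to *Gm16516* (0.92), *Mkrn3* and *Rnu73b*, and *Msi1* to *E130311K13Rik* (0.93) and *Pnlip*. No test goes with these values, which were picked as the highest over all genes.

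The rest of the Notch pathway was compared in the same fits. Of 9 other ligands and receptors, 0 were called in *Nova2-/-* mice and 7 had a positive log2 fold change, with a median of 0.39. The smallest p among them belonged to *Notch3*, a receptor known from mural cells of blood vessels (16.7 ± 1.44 against 26.9 ± 6.92 CPM, log2 fold change 0.69, FDR = 0.105), and to the non-canonical ligand *Dlk1* (2.66 ± 0.918 against 5.23 ± 0.625 CPM, 0.96, FDR = 0.109). *Dll4*, a ligand of endothelial cells, had 0.65 (FDR = 0.144) and *Dll1*, a ligand of neural progenitors, 0.10 (FDR = 0.638). Both were named after their values were seen, and the part of any cell type in this list was not tested. In *Nova1-/-* mice 0 of 9 were called, with a median of 0.02, and *Dlk1* had 0.69 (FDR = 0.505) and the ligand *Jag1* -0.13 (FDR = 0.753).

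Of 19 genes that cut, glycosylate, activate or inhibit Notch proteins or their ligands, 0 were called in either knockout, and the medians were 0.04 in *Nova2-/-* and 0.02 in *Nova1-/-* mice. All 19 lay between -0.21 and 0.24 in *Nova2-/-* mice, where the glycosyltransferase *Rfng* (0.24) and the ubiquitin ligase *Itch* (0.18) had the smallest p. For *Nova1-/-* mice these were *Itch* (-0.12) and the glycosyltransferase *Lfng* (0.18). Of 9 nuclear partners and targets tested, 0 were called. In *Nova2-/-* mice the target *Hey2* was at 3.77 ± 0.345 against 7.11 ± 2.65 CPM (log2 fold change 0.93, FDR = 0.125) and the coactivator *Maml3* had 0.36 (FDR = 0.251). The target *Hey1* had -0.15 (FDR = 0.709) in *Nova1-/-* mice and *Maml3* 0.18 (FDR = 0.749).

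Of 23 further radial glia genes tested, 1 was called in *Nova2-/-* mice: *Tnc*, the matrix protein tenascin C, at 393 ± 17.3 CPM in wild-type littermates and 512 ± 15.9 CPM in the knockouts (log2 fold change 0.39, FDR = 0.0399). It was also called between the wild-type groups, lower in the *Nova2* litters (-0.34, FDR = 0.034). The median of the 23 was 0.06. Of the same genes 0 were called in *Nova1-/-* mice, and *Tnc* was at 492 ± 6.40 against 492 ± 33.9 CPM. *Gli3*, a transcription factor of Hedgehog signalling, had 0.30 (FDR = 0.527) and *Dach1*, a transcription factor, -0.29 (FDR = 0.505).

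Of 12 further intermediate progenitor and proneural genes tested, 0 were called in *Nova2-/-* mice and 11 were positive, where 51.8% of all genes were, with a median of 0.23. The wild-type groups, *Nova2* litters over *Nova1* litters, also had 11 of 12 positive, with a median of 0.31 and 1 called. The summed CPM of the whole list of 13 genes was 195 to 225 in wild-type littermates and 230 to 257 in *Nova2-/-* mice. *Mfap4*, a matrix-associated glycoprotein, had 0.48 (FDR = 0.102) and *Tead2*, a transcription factor of the Hippo pathway, 0.37 (FDR = 0.111). In *Nova1-/-* mice 0 were called with a median of 0.05, and the 2 with the smallest p were the somatostatin receptor *Sstr2* (0.13) and *Insm1* (0.15).

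Of 26 cell cycle genes, 0 were called in *Nova2-/-* mice, 23 were positive, where 51.8% of all genes were, and the median was 0.18. The wild-type groups, *Nova2* litters over *Nova1* litters, had 21 of 26 positive, with a median of 0.18 and 1 called. The replication factor *Mcm3* was at 20.7 ± 0.855 against 26.9 ± 0.802 CPM (0.39, FDR = 0.0786) and the G1 cyclin *Ccnd2* at 137 ± 12.6 against 173 ± 2.95 CPM (0.34, FDR = 0.0838). In *Nova1-/-* mice 0 of 26 were called, with a median of 0.05. There the cyclin *Ccnd1* had -0.28 (FDR = 0.508) and the mitotic kinase *Bub1* 0.34 (FDR = 0.664).

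Among the markers of other cells, 0 of 13 cortical neuron genes were called in *Nova2-/-* mice (median -0.07). Of 11 genes of interneurons and the ganglionic eminences, 1 was called, the peptide *Sst*, which was lower (-0.83, FDR = 0.0366). The median of these 11 was 0.03, with 7 positive and 4 negative. None of 9 genes of oligodendrocyte precursors and astrocytes, 8 of microglia, 6 of choroid plexus and cortical hem, or 7 of blood was called, with medians of 0.04, -0.02, 0.25 and 0.26. The summed CPM of the choroid plexus and hem genes ranged from 111 to 1524 within the *Nova2-/-* mice alone. In *Nova1-/-* mice 0 were called in each of these lists and in the meningeal and endothelial ones, and the meningeal median was -0.26.

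**Figure D5:**
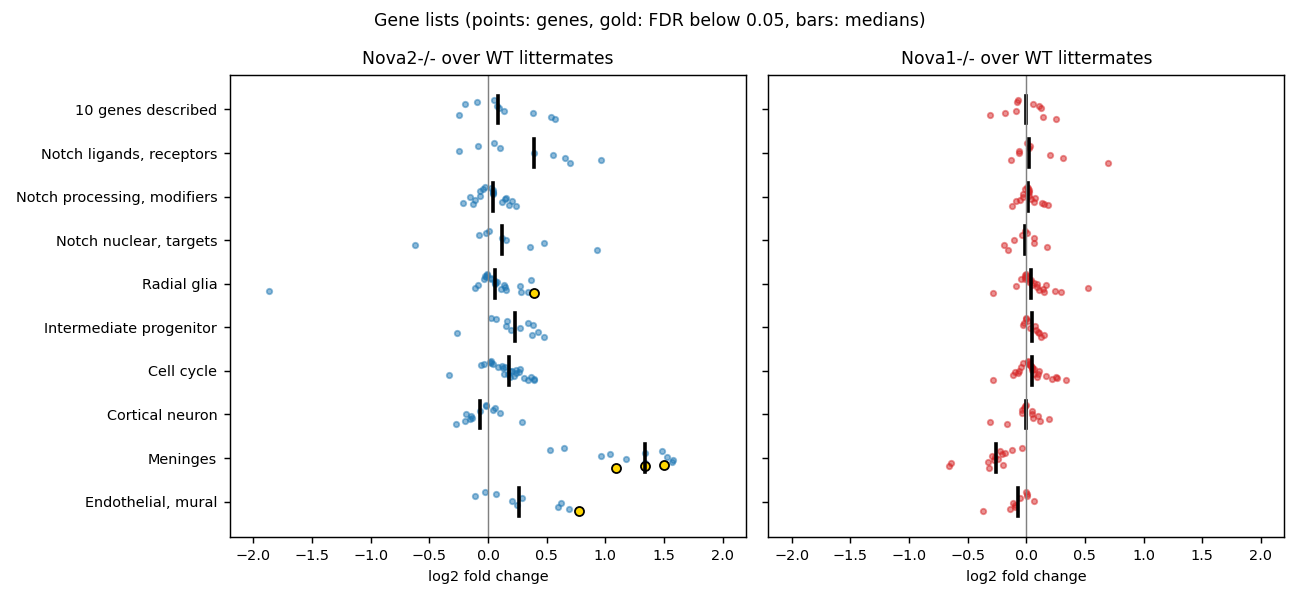
Log2 fold changes of the genes of 10 lists in *Nova2-/-* (left) and *Nova1-/-* mice (right) over their wild-type littermates. Points are genes, bars are medians, and gold points have an FDR below 0.05. The median of the 10 genes described is near 0 in both panels, and the largest medians belong to the meningeal list, 1.33 in *Nova2-/-* and -0.26 in *Nova1-/-* mice.

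No NOVA2-dependent alternative splicing event was listed for the 10 genes. The deposited table holds 1991 events under 539 gene symbols, of which 0 carry the symbol of a member and 0 overlap the span of one in mm9. Among the other radial glia genes 1 event was listed, a cassette exon of *Ptprz1*, a receptor phosphatase, with its flanking exons at chr6:22972199-22975041 on the plus strand of mm9. Among the other intermediate progenitor and proneural genes 1 event was listed too, in *Cux2*, a transcription factor of upper-layer neurons and their progenitors. The table lists events that passed the authors' limits, so absence from it gives no splicing level for these genes.

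In mm9 the receptor genes lie at chr2:26313423-26372183 (*Notch1*, minus strand) and chr3:97817461-97954290 (*Notch2*, plus strand). *Hes1* lies at chr16:30064470-30067882, *Hes5* at chr4:154335032-154336480 and *Msi1* at chr5:115879608-115905707. *Sox2*, at chr3:34548927-34551383, lies inside the long noncoding gene *Sox2ot* on the same strand. *Pax6* lies at chr2:105509053-105543317, *Fabp7* at chr10:57504687-57508256, *Neurog2* at chr3:127336054-127338549 and *Eomes* at chr9:118387330-118395250. *Pax6*, *Hes5*, *Notch1* and *Msi1* overlap an annotated gene on the opposite strand, and since the library kit does not mark strand, reads from these partners cannot be told apart from theirs. The values are given per gene symbol and are not split by transcript. Which exons were counted is not given in the sources used here.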

How the data were processed

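RNA was sequenced from cortex of 12 mice. Per the paper's methods, total RNA was extracted with Trizol, depleted of ribosomal RNA and made into TruSeq libraries, and the authors aligned paired-end reads to mm10 with OLego. Expected counts for each gene symbol, without normalization, were deposited by the authors for every cortex library. The counting program and its annotation are not given in the sources used here. The submitters' processing notes name mm9 and edgeR. The table's log2 fold change and FDR columns, and the inclusion differences and FDR of the splicing table, hold the authors' own comparisons and were not used. From the splicing table, whose coordinates are in mm9, only symbols and spans were read. Gene counts of midbrain and hindbrain were not analysed here.

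Samples were grouped by the genotype and region in their labels, and the wild-type mice were assigned to the *Nova2* litters (1 to 3) or *Nova1* litters (4 to 6) from the sample names and the methods. Replicates are separate mice. Expected counts were rounded, filtered with edgeR's default filter (filterByExpr), scaled by TMM and tested with the quasi-likelihood test of edgeR 4.0.16 in R 4.3.3 with Benjamini-Hochberg adjustment over all genes tested. Each comparison of 2 groups used the 6 mice of those groups, and the fit of *Nova2-/-* less *Nova1-/-* changes used all 12. Means carry SDs over mice, and 95% intervals come from the fit. Exon lengths and positions came from GENCODE vM1 on mm9, and promoter windows from RefSeq. No 2 columns were identical. The test was checked on simulated counts. Python 3.11.15, pandas 2.3.3 and matplotlib 3.10.9 were used.

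The alternatives were DESeq2 1.42.0, upper-quartile scaling, removal of the filter, a minimum of 10 counts in each sample, edgeR's exact test, FDR below 0.1, all 12 cortices in 1 fit, a replicate block, each mouse left out, and the longest transcript for lengths. Matching of splicing events by position was added after seeing the data. The 10 genes and the gene lists were chosen with earlier results of these data known. Genes named are the 10, the targeted genes, the 3 nearest genes of each by correlation, and from each list and knockout the called genes (up to 5) or else the 2 with the smallest p. For *Msi1*, 1 of the 3 nearest genes is not reported here. *Dll1*, *Dll4* and *Cux2* were named after their values were seen.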

Additional observations from a re-analysis of the deposited data

Results flagged for a closer look

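None of the 10 progenitor and Notch genes was picked out by the test of the difference between the knockouts' changes. Among the genes named beside them, 8 had a change in *Nova2-/-* minus a change in *Nova1-/-* that passed an FDR of 0.05. This was the fit of all 12 cortices (edgeR's quasi-likelihood test), which called 1.83% of 16210 genes. The 8 had been named for their values in the comparisons with littermates, which used the same mice. Their passing here is therefore not separate support. The differences on the log2 scale were 0.38 for the radial glia gene *Tnc* (FDR = 0.0404), -0.93 for the interneuron peptide *Sst* (FDR = 0.0147), 1.14 for the endothelial receptor *Kdr* (FDR = 0.00193) and 0.71 for the microglial receptor *Csf1r* (FDR = 0.0218). For the meningeal genes they were 1.74 for *Crabp2* (FDR = 0.00689), 1.53 for *Dcn* (FDR = 0.0124), 1.61 for *Col1a1* (FDR = 0.0395) and 1.88 for *Col3a1* (FDR = 0.0214). In the whole meningeal list 7 of 14 passed. *Tnc*, *Sst*, *Kdr* and *Csf1r* were each the only gene of their list to pass. The median differences of those lists were -0.04, -0.03, 0.31 and 0.02, in that order. The targeted genes also passed, as each is changed in its own knockout: *Nova1* by 9.15 (FDR = 2.24e-07) and *Nova2* by -0.98 (FDR = 0.0286). Between the wild-type groups, 4 of these genes were called lower in the *Nova2* litters than in the *Nova1* litters: *Tnc* (-0.34, FDR = 0.034), *Csf1r* (-0.58, FDR = 0.0392), *Dcn* (-1.22, FDR = 0.0341) and *Col3a1* (-1.47, FDR = 0.0444). All 14 genes of the meningeal list were lower in the wild-type mice of the *Nova2* litters, with a median of -1.08. Of these, 11 were lower without overlap, where 13.6% of all genes were. Groups of 3 mice are too small for the test of single outlying samples.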

How the results depend on the processing

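Of the 10 genes, the number called in *Nova2-/-* cortex was 0 in the reported fit and 1 with DESeq2, with all 12 cortices in 1 fit and with the replicate block, each time *Notch2*, and it ranged from 0 to 2 over fits that left out 1 mouse. In *Nova1-/-* cortex it was 0 throughout, that range included. Between the knockouts' changes it was 0, or 0 to 1 without single mice. Between the wild-type groups it was 0 in the reported fit, 1 with no filter, 2 with DESeq2, the exact test, all 12 cortices in 1 fit or FDR below 0.1, and 0 to 8 without single mice (8 only without wild-type mouse 3 of the *Nova2* litters). At a log2 fold change of at least 1 it was 0 in every comparison and alternative. Levels per kb over the longest transcript were 893 for *Fabp7*, 11.97 for *Msi1*, 6.09 for *Notch1*, 4.41 for *Eomes*, 4.39 for *Hes1* and 3.24 for *Pax6*. Over all genes, called counts ranged from 166 to 1334 in *Nova2-/-* and from 1 to 54 in *Nova1-/-* cortex over the alternatives that kept all mice, from 314 to 851 for the difference and from 469 to 1590 between the wild-type groups, and without single mice from 7 to 1433, 1 to 10, 113 to 1005 and 3 to 3561.

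Of 570 log2 fold changes of the 10 genes under alternatives, 26 turned direction, all by leaving out 1 mouse and in genes whose interval held 0. Without single mice the values ran from -0.059 to 0.14 for *Sox2*, -0.068 to 0.15 for *Pax6*, -0.67 to 0.0091 for *Hes1*, -0.32 to 0.073 for *Hes5*, -0.020 to 0.20 for *Notch1* and -0.064 to 0.21 for *Fabp7* in *Nova2-/-* cortex, and from -0.061 to 0.24 for *Pax6*, -0.26 to 0.14 for *Eomes* and -0.32 to 0.13 for *Neurog2* in *Nova1-/-* cortex. For the difference between the knockouts they ran from -0.11 to 0.093 for *Sox2*, -0.20 to 0.10 for *Pax6*, -0.35 to 0.33 for *Hes1* and -0.13 to 0.26 for *Hes5*, and between the wild-type groups from -0.00079 to 0.33 for *Eomes*. A further 23 came past the threshold, 11 of them without wild-type mouse 3 of the *Nova2* litters. The cause was not tested.

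The reported fit did not pair the mice of the *Nova2* litters by their numbers. Same-numbered mice had correlations of their deviations of 0.09, -0.02 and 0.14, not all above 0.1. Differently numbered mice had values from -0.18 to 0.12. With deviations from means of 3 mice, these values cannot decide whether the numbers pair littermates. In the replicate block *Notch2* had a log2 fold change of 0.57 (FDR = 0.0271), and no other of the 10 genes was called. The *Nova1* litters share no replicate numbers, so they were not paired.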
